A study of Mus musculus with 26 samples.

Results

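S49 is an established mouse T-lymphoma cell line, and the measurements described here are its gene expression after 2 h of exposure to 8-CPT-cAMP, a membrane-permeant analog of cyclic AMP, set against untreated cells. The members were chosen by their titles: 3 arrays of wild-type (WT) cells at 2 h and 4 arrays of WT cells at 0 h, 7 of the 26 arrays of the series. Treated cells had received 100 µM of the analog, and the labels name no vehicle for the untreated ones. The same times in the Kin- line, 4 untreated arrays and 3 at 2 h, and the 3 WT arrays at 6 h are used for comparison. All groups are S49 cells, Kin- being a variant line known for its lack of cAMP-dependent protein kinase (PKA) activity; the labels do not say whether arrays came from separate cultures, so p-values here cover array-to-array spread that may be technical only.

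Cyclic AMP binds the regulatory subunits of PKA and frees its catalytic subunits, which phosphorylate the transcription factor CREB and its relatives CREM and ATF1 at cAMP response elements in promoters. Early targets in many tissues are transcription factors such as FOS and NR4A1, and feedback genes that lower cAMP or PKA signalling, among them phosphodiesterases and the short CREM repressor ICER. In T cells PKA restrains signalling from the T cell receptor, and S49 cells exposed to cAMP for long stop dividing in G1 and then die, which PKA-deficient variants do not.

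Levels and changes below are in log2-like units, the square root of the values the authors deposited; a change of 1 is taken as close to a doubling, but this scale is an assumption. The 7 arrays had median levels between 5.42 and 5.53. They fall into array sets numbered 1 to 14 and 16 to 47, which separate along the first component of the residuals, with 35.5% of the variance: the highest score in the first set was -14.3 and the lowest in the second 6.23. Untreated arrays 1 and 13 and treated array 2 belong to the first set, and untreated arrays 16 and 36 and treated arrays 17 and 37 to the second, so changes within the first set rest on 1 treated array. Of 7 measured T lymphocyte markers 6 stood above the median gene in untreated cells, with a median level of 9.98. No marker of B, myeloid, erythroid, fibroblast, epithelial or NK cells stood above the median gene, and their median levels lay between 2.48 and 3.98. The summed level of the T lymphocyte markers ran from 66.5 to 68.0 in untreated arrays and from 63.0 to 64.7 at 2 h, and 2 of the 7 passed the test at 2 h, the T cell adhesion receptor Cd2 among them. RNA from whole cultures cannot tell fewer cells of a kind from less RNA per cell.

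At 2 h, 3249 of 22626 probe sets had passed the limma test at an adjusted p under 0.05 (14.4%), 1608 higher and 1641 lower. With the brightest probe set standing for each gene, 1944 of 12393 genes passed, or 15.7%: 898 rose (7.25%) and 1046 fell (8.44%). Large changes leaned towards rises, since 287 genes rose by at least 1 unit (2.32%) and 201 fell by as much (1.62%). The treated arrays lay wholly above the untreated ones in 1476 genes (11.9%) and wholly below them in 1409 (11.4%), whatever the p. Without treated array 2, 3719 probe sets passed, and with limma's array weights, which gave that array the lowest weight of the 7 (0.303), 6513 did. The share of calls that were higher was 49.5% with all arrays, 60.2% without array 2, 64.1% with the weights, 58.9% within arrays 16 to 47 alone and 59.1% within arrays 1 to 14 alone, where array 2 is the only treated array. It was below that of all arrays with quantile normalization (45.8%), without treated array 37 (46.0%) and with runs of consecutive array numbers as a block (47.3%). The median standard error of a change was 0.119.

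**Figure D1:**
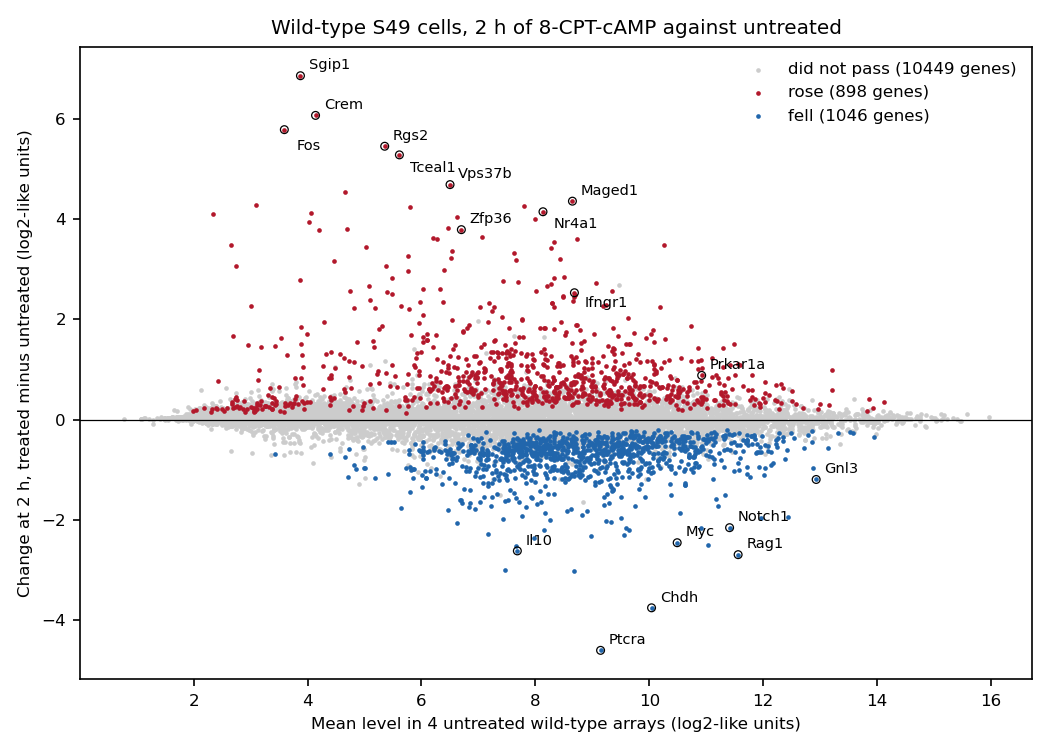
Change at 2 h in wild-type cells, treated minus untreated, against the mean level in the 4 untreated arrays, both in log2-like units, with 1 point per gene. Red points are the 898 genes that rose, blue points the 1046 that fell, and grey points those that did not pass; the largest rises, Sgip1, Crem and Fos, started from low levels and the largest falls, Ptcra and Chdh, from high ones.

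Kin- cells showed little of this. No probe set passed there at 2 h (0.0%; limma, smallest adjusted p = 0.101), 489 probe sets (2.16%) had an unadjusted p under 0.05, and 10 changed by at least 1 unit whatever the p, where 930 did in WT cells. The interquartile range of the change over all probe sets was 0.225 in WT and 0.114 in Kin- cells. For the 287 genes that rose by at least 1 unit, the median change was 1.50 in WT and -0.01 in Kin- cells, where single genes ran from -0.56 to 0.78. For the 201 that fell as much, the medians were -1.23 and -0.02, with Kin- values from -0.69 to 0.38. The difference between both responses, tested as an interaction, passed in 1566 probe sets (6.92%), and in 2616 with the runs of consecutive array numbers as a block. Of the genes described below, the one with the largest Kin- change was the Notch target Hes1, at 0.59 against 1.53 in WT cells. Its difference also passed (0.94, adjusted p = 0.0196), but Hes1 started from a far lower level in Kin- than in WT cells.

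**Figure D2:**
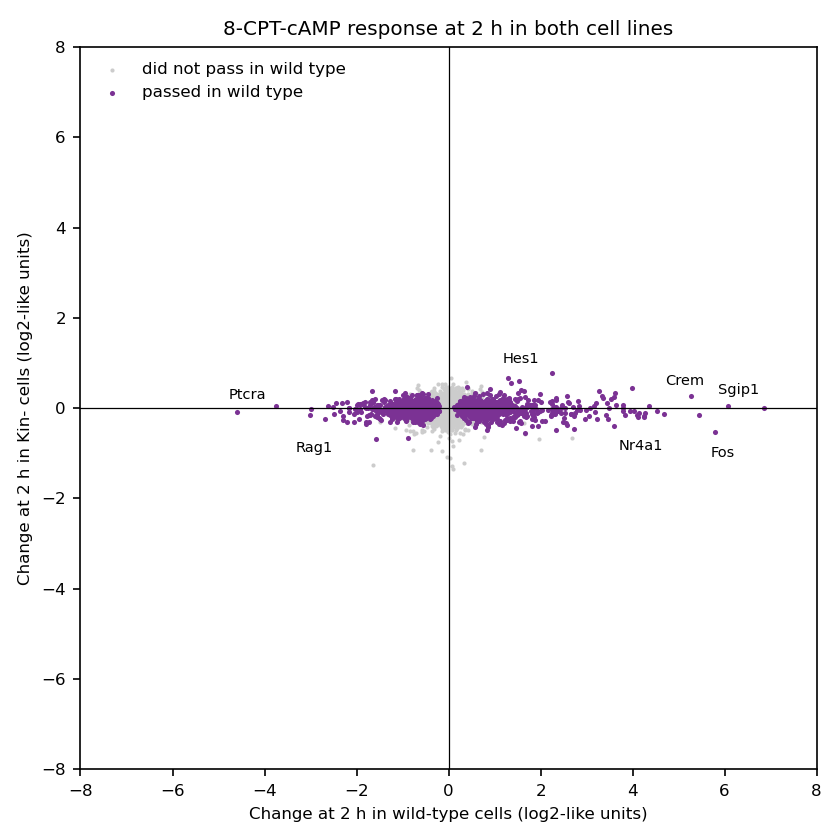
Change at 2 h in Kin- cells against the change at 2 h in wild-type cells, both in log2-like units and on equal axes, with 1 point per gene. Purple genes passed in wild type and spread from Ptcra at -4.60 to Sgip1 at 6.86 along the horizontal axis, while on the vertical axis the genes that rose by at least 1 unit stayed between -0.56 and 0.78.

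The cAMP response element was looked up in the promoters of the measured genes, because it is the sequence that CREB binds. Its full form is the palindrome TGACGTCA and its half-site is TGACG, searched on both strands (CGTCA on the other) from 250 bases before to 50 bases after each start in RefSeq (GRCm38.p6); each full site also counts as a half-site. Of 9882 measured genes with a promoter in that table, 3.00% held the full element. The share was 6.46% among the risers (47 of 728), 2.36% among the fallers (20 of 847) and 2.76% among genes that did not pass (229 of 8307). It was 6.22% (14 of 225) for rises of at least 1 unit, 10.4% (8 of 77) for rises of at least 2 units and 3.11% (5 of 161) for falls of at least 1 unit. The half-site shares of these 3 groups were 50.7%, 45.5% and 28.0%, so the shares did not climb steadily with the size of the rise. Half-sites were in 47.4% of risers, 35.2% of fallers and 29.6% of the others, and over all 32851 promoters of the table the shares were 1.79% for the full and 20.8% for the half-site. Median GC content of these windows was 61.3%, 60.7% and 58.8% in the same order, and the median number of CpG dinucleotides 22.5, 21.3 and 17; the part of base composition in the shares was not tested. The shares for the AP-1 site TGACTCA were 4.81%, 4.49% and 5.84%, for the E-box CACGTG 12.2%, 16.3% and 10.1%, and for CCAAT 48.9%, 41.1% and 41.8%. A match is only a stretch of letters, not evidence of binding.

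Of the 29 leading or preset genes that rose, 25 had a promoter in the table, 17 with a half-site and 3 with the full element. These 3 are shown first, with the full element in capitals. The Dusp1 window (chr17:26508578-26508645, minus strand) holds it 143 bases before the start, that of Ppp1r15a (chr7:45526269-45526310, minus strand) 12 bases before it, and that of Prkar1a (chr11:109650870-109650937, plus strand) 49 bases before it.
Dusp1: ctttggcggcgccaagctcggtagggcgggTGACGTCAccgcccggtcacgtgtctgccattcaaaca
Ppp1r15a: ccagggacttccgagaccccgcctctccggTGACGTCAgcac
Prkar1a: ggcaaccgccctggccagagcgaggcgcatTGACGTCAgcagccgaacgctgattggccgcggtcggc
Of the 17 genes with a half-site, the windows of Fos, Nr4a1 and Nfil3 were added, a choice made after their values were seen. Others are not printed, among them Rgs2, with sites 185 and 67 bases before its start. Half-sites are in capitals. Fos (chr12:85473731-85473858, plus strand) has them 129 and 66 bases before the start, Nr4a1 (chr15:101266596-101266840, plus strand) at 233, 213, 69 and 40 bases, and Nfil3 (chr13:52981064-52981128, minus strand) at 59 bases.
Fos: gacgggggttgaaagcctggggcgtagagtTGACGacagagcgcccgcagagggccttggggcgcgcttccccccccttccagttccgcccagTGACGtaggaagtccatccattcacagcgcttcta
Nr4a1: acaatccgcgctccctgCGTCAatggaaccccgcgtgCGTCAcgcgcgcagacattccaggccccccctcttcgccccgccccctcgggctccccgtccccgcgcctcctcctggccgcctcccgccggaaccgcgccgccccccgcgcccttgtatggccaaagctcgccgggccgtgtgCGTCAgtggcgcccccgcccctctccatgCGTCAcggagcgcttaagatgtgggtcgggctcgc
Nfil3: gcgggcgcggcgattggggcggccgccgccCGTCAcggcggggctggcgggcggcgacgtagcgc
Of the genes that rose by at least 1 unit, 14 of the 225 with a promoter hold the full element. Besides Dusp1 and Ppp1r15a they include the small Maf factor Maff (3.07), the antiproliferative gene Btg2 (1.15), the p53-induced phosphatase Ppm1d (1.10) and the T cell receptor kinase Zap70 (1.01). Trp53inp2 at 3.43 and Zfand2a at 2.85 belong to the same 14 and were picked after their values were seen.

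Transcription factors of the CREB and AP-1 families gave some of the largest rises. Crem (1449037_at), which encodes CREM and its repressor ICER, stood at 4.20, 4.09, 4.20 and 4.08 in untreated arrays 1, 13, 16 and 36 and at 10.97, 10.16 and 9.49 in treated arrays 2, 17 and 37. Every treated array was far above every untreated one, and array 2, of the first set, was the highest. The change was 6.07 ± 0.36, adjusted p = 2.49e-10 (± is the standard error of the fit throughout). In Kin- cells Crem stood at 3.82, 4.12, 4.11 and 4.59 untreated and at 4.11, 4.24 and 4.26 at 2 h, so those groups overlapped.

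Fos (1423100_at), the AP-1 subunit, read 3.46, 3.29, 3.13 and 4.49 in the untreated arrays, in the same order, and 9.52, 8.87 and 9.74 in the treated ones. Untreated array 36 was the highest of its group and still 4.38 below the lowest treated array, and the change was 5.78 ± 0.39, adjusted p = 1.63e-09. Nr4a1 (1416505_at), an orphan nuclear receptor induced by T cell receptor and cAMP signals, went from 8.83, 8.16, 7.14 and 8.40 to 12.52, 12.24 and 12.07, again without overlap (4.14 ± 0.36, adjusted p = 5.34e-08). Maff read 2.74, 2.73, 2.64 and 2.85 and then 4.79, 6.61 and 6.03; its rise of 3.07 ± 0.24 was smaller in array 2 (2.06 within the first set, 3.58 within the second). Junb, another AP-1 subunit, rose by 2.20 ± 0.34 and Ier2 by 1.34 ± 0.15. Fosb did so only in part: treated arrays 17 and 37 read 3.61 and 3.58, but array 2 read 2.42, within the untreated range of 2.40 to 2.47 (0.78 ± 0.18, adjusted p = 0.00376; 0.157 with only these groups in the fit).

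The rest of these families moved less. Of 22 AP-1, EGR, IER and NR4A genes 6 rose and 1 fell (27.3% and 4.55%, against 7.25% and 8.44% of all genes). The fall was that of Srf, the serum response factor (-0.78 ± 0.13, or -0.33 as the median over its 2 probe sets). Egr1, another immediate-early gene, read between 2.22 and 2.36 in the treated arrays and between 2.25 and 2.27 in the untreated ones, with no difference found (0.03 ± 0.10, adjusted p = 0.85). Such levels are near the floor: the NK marker Klrk1, at 2.27, stood at percentile 5.23 of genes in untreated cells. A fall from such a level could not be seen, while Ramp3, at 2.17 to 2.63 untreated, did rise from one. No rise of Egr1 was seen at 2 h, and whether this probe set can detect one was not tested. Of 15 CREB and ATF genes 3 rose, a share above the 7.25% of all genes, and none fell. The risers were Crem, Batf (1.33 ± 0.24) and Jdp2 (1.16 ± 0.16, or 0.59 as the median over its 2 probe sets). Batf and Jdp2 are partners of AP-1 factors. Among 16 Krüppel-like factors (6.25% rose and 18.8% fell) Klf6 rose by 1.14 ± 0.23, while Klf10 fell by 1.53 and Klf16 and Klf13 also fell. Klf2, which marks resting T cells, did not pass: untreated arrays ran from 5.15 to 6.83 and treated ones from 5.96 to 7.10 (0.48 ± 0.36, adjusted p = 0.45).

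**Figure D3:**
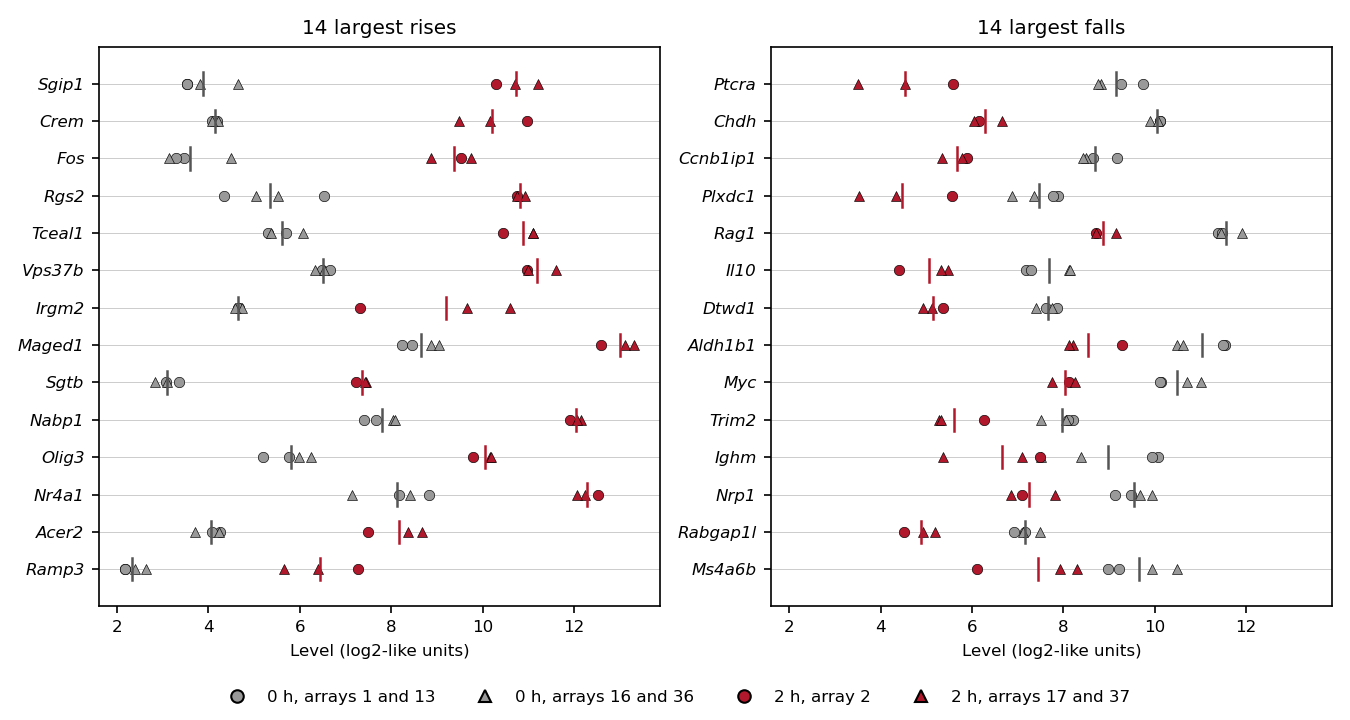
Levels, in log2-like units, of the 14 genes with the largest rises (left) and the 14 with the largest falls (right) in each untreated (grey) and treated (red) wild-type array; circles are arrays of the set numbered 1 to 14, triangles those of the set numbered 16 to 47, and vertical bars group means. In each row the red symbols lie wholly to one side of the grey ones, as the choice of these genes required, and for Irgm2 the red circle of array 2 at 7.31 lies apart from the triangles at 9.67 and 10.60.

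Of 14 RGS genes 1 rose (7.14%, against 7.25% of all genes) and 2 fell. The riser, Rgs2 (1419248_at), which limits signalling by G proteins, stood at 6.53, 4.35, 5.51 and 5.04 untreated and at 10.74, 10.75 and 10.92 treated. The treated arrays lay within 0.18 of each other, the untreated ones were spread over 2.18, and the change was 5.45 ± 0.48, adjusted p = 7.05e-08. Rgs3 fell by 1.03 (-0.23 as the median over its 4 probe sets) and Rgs14 by 0.56, a call lost with only these groups in the fit (adjusted p = 0.076). Pde4b, a phosphodiesterase that degrades cAMP, read 5.45, 5.41, 5.10 and 5.28 and then 6.49, 7.27 and 7.74, with array 2 the lowest of the treated arrays (1.86 ± 0.20, adjusted p = 7.46e-07). It was 1 of 2 risers among 13 measured phosphodiesterases, the other being Pde10a (0.76 ± 0.23), whose call was lost without treated array 2 (adjusted p = 0.0641), treated array 37 (0.169) or untreated array 13, 16 or 36 (0.0632 to 0.0674), with the runs as a replicate block (0.0544) and within arrays 16 to 47 alone (0.115). Pde10a's change was 0.09 as the median over its 3 probe sets. Pde6d fell by 0.99. Of the 13 phosphodiesterases 15.4% rose and 7.69% fell, against 7.25% and 8.44% of all genes.

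PKA's own subunits changed little apart from 1. Prkar1a, the type I regulatory subunit that holds the catalytic subunits inactive, went from 10.90, 10.93, 10.88 and 10.97 to 11.66, 11.77 and 11.98, narrow groups with a gap of 0.69 (0.88 ± 0.10, adjusted p = 3.34e-06). The catalytic subunit genes Prkaca (0.25 ± 0.10, adjusted p = 0.129) and Prkacb (-0.02 ± 0.18, adjusted p = 0.94) did not pass. Sik1, a kinase that switches off CREB coactivators, read 5.39, 5.54, 5.47 and 5.56 and then 6.66, 7.05 and 6.04 (1.10 ± 0.24, adjusted p = 0.00322), and Sgk1, a kinase of the same broad family as PKA, rose by 2.25 ± 0.30. Ppargc1b, a coactivator of mitochondrial genes, fell by 1.64. Upstream of PKA, the adenylyl cyclases Adcy6 (-0.74 ± 0.09) and Adcy7 (-0.61 ± 0.10) fell. Ramp3, an accessory protein of Gs-coupled receptors, stood at 2.17, 2.17, 2.63 and 2.38 untreated and at 7.26, 5.66 and 6.39 treated, where array 2 was the highest (4.10 ± 0.25, adjusted p = 4.34e-10).

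Phosphatases of the MAP kinases split. Dusp1, whose full element is printed above, read 6.68, 5.42, 6.82 and 7.60 untreated and 10.20, 10.81 and 10.96 treated, without overlap (4.03 ± 0.45, adjusted p = 1.57e-06). Dusp10 went from 8.89, 8.41, 8.90 and 8.71 to 12.18, 12.46 and 12.32, with both groups tight (3.60 ± 0.16, adjusted p = 3.99e-12). The ERK-directed Dusp2 moved the other way, from 7.96, 8.39, 8.41 and 8.05 to 7.22, 6.99 and 6.90 (-1.17 ± 0.20, adjusted p = 0.000254), and Dusp14 and Dusp22 fell by 0.71 and 0.67. The Dusp14 call was lost with only these groups in the fit (adjusted p = 0.103) and the Dusp22 call without treated array 17 (0.0636). In all 3 of 18 genes of this list rose and 5 fell (16.7% and 27.8%, against 7.25% and 8.44% of all genes). The third riser was the ERK inhibitor Spred2 (1.24 ± 0.22, or 0.70 as the median over its 2 probe sets).

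Of 19 clock genes 5 rose (26.3%, against 7.25% of all genes) and none fell. Nfil3, a repressor that acts on clock outputs and in lymphocytes, read 4.22, 4.52, 3.44 and 3.92 untreated and 8.97, 7.28 and 7.65 treated; the lowest treated array was 2.76 above the highest untreated one (3.94 ± 0.63, adjusted p = 0.000112). Per1, a core repressor of the clock and a known CREB target, went from 6.40, 6.62, 6.33 and 6.77 to 8.46, 8.83 and 8.25 (1.98 ± 0.17, adjusted p = 3.81e-08). The nuclear receptors Rora (1.44 ± 0.25) and Nr1d2 (1.33 ± 0.16; 0.77 as the median over its 2 probe sets) and the kinase Csnk1d (0.92 ± 0.10; 0.31 as the median over its 5 probe sets) were the other risers. Per1 rose by 1.95 within the first array set and by 1.99 within the second, and Nfil3 by 4.61 and 3.78.

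Regulators of mRNA decay and antiproliferative BTG and TOB genes rose too, 6 of 17 (35.3%, against 7.25% of all genes) with none falling. Zfp36 encodes tristetraprolin, which directs AU-rich mRNAs such as those of cytokines to decay. It stood at 6.73, 6.72, 6.71 and 6.64 untreated and at 10.44, 10.51 and 10.52 treated, with the treated arrays within 0.08 of each other (3.79 ± 0.21, adjusted p = 8.86e-11). Tob2 (2.33 ± 0.21), Btg1 (1.19 ± 0.13), Btg2 (1.15 ± 0.19) and Tob1 (1.06 ± 0.32) slow proliferation and bind the CCR4-NOT deadenylase. The Tob1 call was lost without untreated array 1 or 13 or treated array 17 or 37 (adjusted p from 0.0725 to 0.106). The sixth riser, the deadenylase subunit Cnot7 (0.30 ± 0.10), lost its call in 9 of the settings tried besides arrays 1 to 14 alone, 5 of them with 1 array left out (adjusted p from 0.0582 to 0.221). Ppp1r15a, which brings a phosphatase to the translation factor eIF2 and holds a full element close to its start, read 6.78, 6.23, 6.10 and 6.78 and then 9.94, 10.55 and 10.40 (3.83 ± 0.22, adjusted p = 1.94e-10).

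Several genes of immature T cells fell. Ptcra (1421760_at), the pre-T cell receptor alpha chain, had the largest fall of all genes, from 9.26, 9.74, 8.83 and 8.75 to 5.58, 4.54 and 3.51. All treated arrays were at least 3.17 below the lowest untreated one, array 2 being the least lowered, and the change was -4.60 ± 0.52, adjusted p = 1.69e-06. Rag1, which cuts DNA in antigen receptor recombination, went from 11.39, 11.48, 11.91 and 11.45 to 8.71, 9.16 and 8.72 (-2.69 ± 0.20, adjusted p = 5.64e-09), and its partner Rag2 from 7.89, 7.79, 7.73 and 7.46 to 6.27, 6.14 and 5.79 (-1.65 ± 0.27, adjusted p = 0.000145). In Kin- cells Rag1 read 11.34, 11.35, 11.02 and 11.28 untreated and 11.05, 10.89 and 11.07 at 2 h, a change of -0.24 that did not pass. The list of 11 recombinase and pre-T cell receptor genes had 4 falls (36.4%, against 8.44% of all genes), no rise, and a median change of -0.45 against 0.05 over all genes. The fourth fall was that of the DNA repair gene Xrcc5 (-0.36, a call lost without untreated array 36 or treated array 2 or 37, adjusted p from 0.0545 to 0.0819, and with log2 of the values, 0.0504).

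The Notch pathway, which drives Ptcra in thymocytes, moved in both directions, with 4 rises and 5 falls among 27 genes (14.8% and 18.5%, against 7.25% and 8.44% of all genes). The receptor Notch1 fell from 11.11, 11.62, 11.53 and 11.40 to 9.04, 9.46 and 9.28 in groups that did not overlap (-2.15 ± 0.19, adjusted p = 4.95e-08), and Notch3 by 1.29. The Notch-induced ligase Dtx1 went from 10.17, 9.97, 9.70 and 9.87 to 8.99, 8.18 and 7.99 (-1.54 ± 0.23, adjusted p = 5.4e-05). The repressor Hes1, usually a target of Notch1, rose instead, from 7.73, 7.57, 7.25 and 7.99 to 9.06, 9.13 and 9.30 (1.53 ± 0.17, adjusted p = 1.66e-06). Hes1 was far lower in Kin- cells, so the responses of the lines start from unlike levels. In Kin- cells Hes1 read 3.00, 2.80, 2.83 and 2.29 untreated and 3.10, 3.58 and 3.30 at 2 h, which did not pass (0.59, adjusted p = 1).

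Transcription factors of the T lineage passed in both directions, with 6 rises and 2 falls among 30. The share of rises was above the 7.25% of all genes, while that of falls (6.67%) was below the 8.44% of all genes. Bcl11b, which keeps cells committed to the T lineage, fell from 11.80, 11.85, 12.09 and 12.10 to 9.82, 10.06 and 10.10 (-1.96 ± 0.14, adjusted p = 4.95e-09), and the repressor Gfi1 fell by 0.75. Id2, an inhibitor of E proteins, rose from 9.31, 8.75, 9.24 and 10.09 to 11.47, 12.17 and 12.11 (2.56 ± 0.31, adjusted p = 3.46e-06), with all 3 of its probe sets passing. Gata3 rose by 0.83 ± 0.16. Bcl6 rose by 1.58 ± 0.42, a call lost without treated array 37 (adjusted p = 0.104).

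Genes near the T cell receptor showed 5 rises and 4 falls among 21 (23.8% and 19.0%, against 7.25% and 8.44% of all genes). The Tec-family kinase Txk read 4.16, 4.15, 4.14 and 4.34 untreated and 6.98, 8.28 and 8.67 treated, with array 2 the lowest treated array and still well above the untreated ones (3.78 ± 0.31, adjusted p = 2.44e-08). Ptpn22, a phosphatase that restrains receptor signalling, went from 8.54, 7.88, 8.66 and 8.20 to 11.90, 11.78 and 11.91, the treated arrays within 0.13 of each other (3.54 ± 0.22, adjusted p = 5.58e-10). The coreceptor chain Cd8b1 fell by 1.51 and the adaptors Lat and Vav1 by 0.64 and 0.47. The Lat call was lost without treated array 37 (adjusted p = 0.114) or untreated array 13 (0.0574), and the Vav1 call without treated array 17 (0.0517). Costimulatory and inhibitory receptors had 5 rises and 2 falls among 18 (27.8% and 11.1%). Tnfrsf18 (GITR) rose from 6.13, 5.93, 6.24 and 6.48 to 9.77, 9.57 and 10.08 (3.61 ± 0.27, adjusted p = 7.47e-09), and the inhibitory receptor Ctla4 from 6.53, 5.57, 6.40 and 7.11 to 8.77, 9.84 and 9.54 (2.98 ± 0.35, adjusted p = 3.34e-06). Cd2 fell by 1.64 and Cd160 by 1.10 (-0.64 as the median over its 3 probe sets). Among 23 homing and adhesion genes 5 rose and 4 fell (21.7% and 17.4%). Ccr7, which guides T cells to lymph nodes, rose from 4.21, 4.29, 4.37 and 4.30 to 5.64, 6.66 and 6.41 (1.95 ± 0.21, adjusted p = 1.33e-06). The tetraspanin Cd53 rose by 3.99 ± 0.58; its untreated arrays already differed by set, 7.44, 6.67, 9.23 and 8.64, against 11.16, 12.20 and 12.61 treated.

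Several receptors for interferons and interferon-inducible genes rose. Of 35 cytokine and receptor genes 9 rose (25.7%, against 7.25% of all genes) and 3 fell, and of 31 interferon-inducible genes 8 rose (25.8%) and 1 fell. The lists' medians, 0.08 and 0.17, stayed close to that of all genes. The interferon gamma receptor Ifngr1 went from 8.91, 8.54, 8.68 and 8.62 to 11.27, 11.22 and 11.15, with the treated arrays within 0.12 of each other (2.53 ± 0.18, adjusted p = 2.54e-09), and its partner Ifngr2 from 5.27, 5.88, 5.57 and 5.24 to 7.66, 8.12 and 8.22 (2.51 ± 0.43, adjusted p = 0.000235). Ifnar1, a receptor chain for type I interferons, rose from 7.31, 7.15, 7.29 and 7.22 to 9.22, 9.55 and 9.43 (2.16 ± 0.17, adjusted p = 1.83e-08). Ifngr1 rose by 2.54 within each array set, Ifngr2 by 2.09 and 2.77, and Ifnar1 by 2.00 and 2.23.

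Interferon gamma itself and several interferon-inducible genes were raised less in array 2 than in the other treated arrays. Ifng, interferon gamma, was between 2.64 and 2.67 in untreated arrays and read 3.76, 7.89 and 6.77 in treated arrays 2, 17 and 37. The change was 3.48 ± 0.80, adjusted p = 0.00419, and it was lost with only these groups in the fit (adjusted p = 0.0512); array 2 rose by 1.11 within its set and the other treated arrays by 4.66 within theirs. The GTPase Irgm2 followed the same order, 4.66, 4.64, 4.73 and 4.58 untreated and 7.31, 9.67 and 10.60 treated (4.54 ± 0.63, adjusted p = 2.6e-05), and Igtp went from 7.21, 6.78, 7.02 and 7.26 to 9.22, 10.93 and 11.96 (3.63 ± 0.56, adjusted p = 8.05e-05). For both, array 2 was the lowest and array 37 the highest treated array. The factors Irf8 (3.33 ± 0.40; 2.38 and 3.65 within the sets) and Irf1 (2.45 ± 0.30; 1.47 and 3.01) rose in both sets, more in the second. Ifi204, an interferon-inducible DNA sensor, fell from 9.26, 9.15, 9.50 and 9.42 to 7.20, 7.64 and 7.02 (-2.05 ± 0.19, adjusted p = 1.51e-07).

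Il10, an inhibitory cytokine, fell from 7.18, 7.30, 8.12 and 8.13 to 4.40, 5.48 and 5.32 (-2.62 ± 0.34, adjusted p = 1.02e-05). Among 21 SOCS and STAT genes 7 rose and 1 fell (33.3% and 4.76%, against 7.25% and 8.44% of all genes). Stat3 rose by 1.81 ± 0.24, and Socs1, which shuts down interferon signalling, from 3.52, 3.20, 3.83 and 3.58 to 5.05, 5.13 and 5.30 (1.63 ± 0.23, adjusted p = 2.25e-05). Of 18 NF-kB genes 4 rose (22.2%), among them the inhibitory enzyme Tnfaip3 (1.22 ± 0.25), while 1 fell (5.56%), the inhibitor Nfkbia, by 1.01. Among 15 genes of cytotoxic granules and CTLA-2 proteins 5 rose (33.3%) and none fell. Ctla2a, a cysteine protease inhibitor, went from 5.33, 4.89, 5.99 and 5.30 to 7.94, 8.59 and 8.77 (3.06 ± 0.20, adjusted p = 1.25e-09), and granzyme B, Gzmb, rose by 2.23 ± 0.51 but did not pass within arrays 16 to 47 alone (adjusted p = 0.0565).

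Myc and many genes of ribosome production fell. Myc, which drives ribosome production and proliferation, went from 10.14, 10.11, 11.02 and 10.71 to 8.12, 7.74 and 8.25; the groups did not overlap, and array 37, the highest treated array, was still 1.86 below the lowest untreated one (-2.46 ± 0.31, adjusted p = 8.58e-06). Of 53 ribosome biogenesis factors 23 fell (43.4%, against 8.44% of all genes) and none rose, with a median change of -0.41. Array by array, the list's median difference from the untreated mean was -0.27 in array 2, -0.45 in array 17 and -0.48 in array 37, and the median change was -0.36 within the first array set and -0.41 within the second. In Kin- cells the same list had a median change of -0.001. The largest falls were those of Ppan, from 9.88, 10.05, 9.69 and 9.67 to 8.86, 8.20 and 8.25 (-1.38 ± 0.24, adjusted p = 0.000324), of Wdr43 (-1.31 ± 0.21) and of Gnl3 (-1.19 ± 0.32), whose products act in the nucleolus; the Gnl3 call was lost without treated array 37 (adjusted p = 0.109).

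RNA polymerase I, which makes ribosomal RNA, had 4 falls (23.5%, against 8.44% of all genes) and no rise among 17 genes of its machinery (median change -0.31). With the array set as a term falls over all 12393 genes grew from 1046 to 1412, and RNA polymerase I had 8. Its subunit Polr1b read 7.58, 7.87, 7.20 and 7.31 untreated and 6.71, 6.13 and 6.33 treated, without overlap, but the call (-1.10 ± 0.34, adjusted p = 0.035) was lost when untreated array 1 or 13 or treated array 17 or 37 was left out (adjusted p from 0.0728 to 0.144), with log2 of the values (0.0936) and with quantile normalization (0.0539). Taf1c and Taf1a, also among the fallers, lost their calls with only these groups in the fit (adjusted p = 0.0571 and 0.0877). Both lost them without untreated array 13 too (0.0514 and 0.0798). The ribosomal proteins themselves moved little: of 37 measured, 2 rose and 1 fell (5.41% and 2.7%), with a median change of 0.01. Nucleotide and one-carbon enzymes had 4 falls (12.9%, against 8.44% of all genes) and no rise among 31 genes. Chdh, a mitochondrial choline dehydrogenase, fell from 10.11, 10.11, 9.89 and 10.06 to 6.16, 6.05 and 6.65, the largest fall after Ptcra (-3.75 ± 0.21, adjusted p = 7.3e-11). Aldh1b1, a mitochondrial aldehyde dehydrogenase, went from 11.53, 11.50, 10.48 and 10.61 to 9.28, 8.22 and 8.11, with the untreated arrays of the first set above those of the second (-2.49 ± 0.44, adjusted p = 0.000341). Of 26 amino acid transporters and ATF4 targets 3 rose and 4 fell (11.5% and 15.4%, against 7.25% and 8.44% of all genes). The glutamine transporter Slc1a5 fell by 1.13. Another amino acid transporter, Slc38a1, rose from 8.32 to 8.55 in untreated arrays to 9.20 to 9.80 in treated ones. Among 24 glycolysis genes the glucose transporter Slc2a3 rose by 2.72 ± 0.51 (1.56 as the median over its 4 probe sets), and 3 rose (12.5%, against 7.25% of all genes) and none fell in all.

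**Figure D4:**
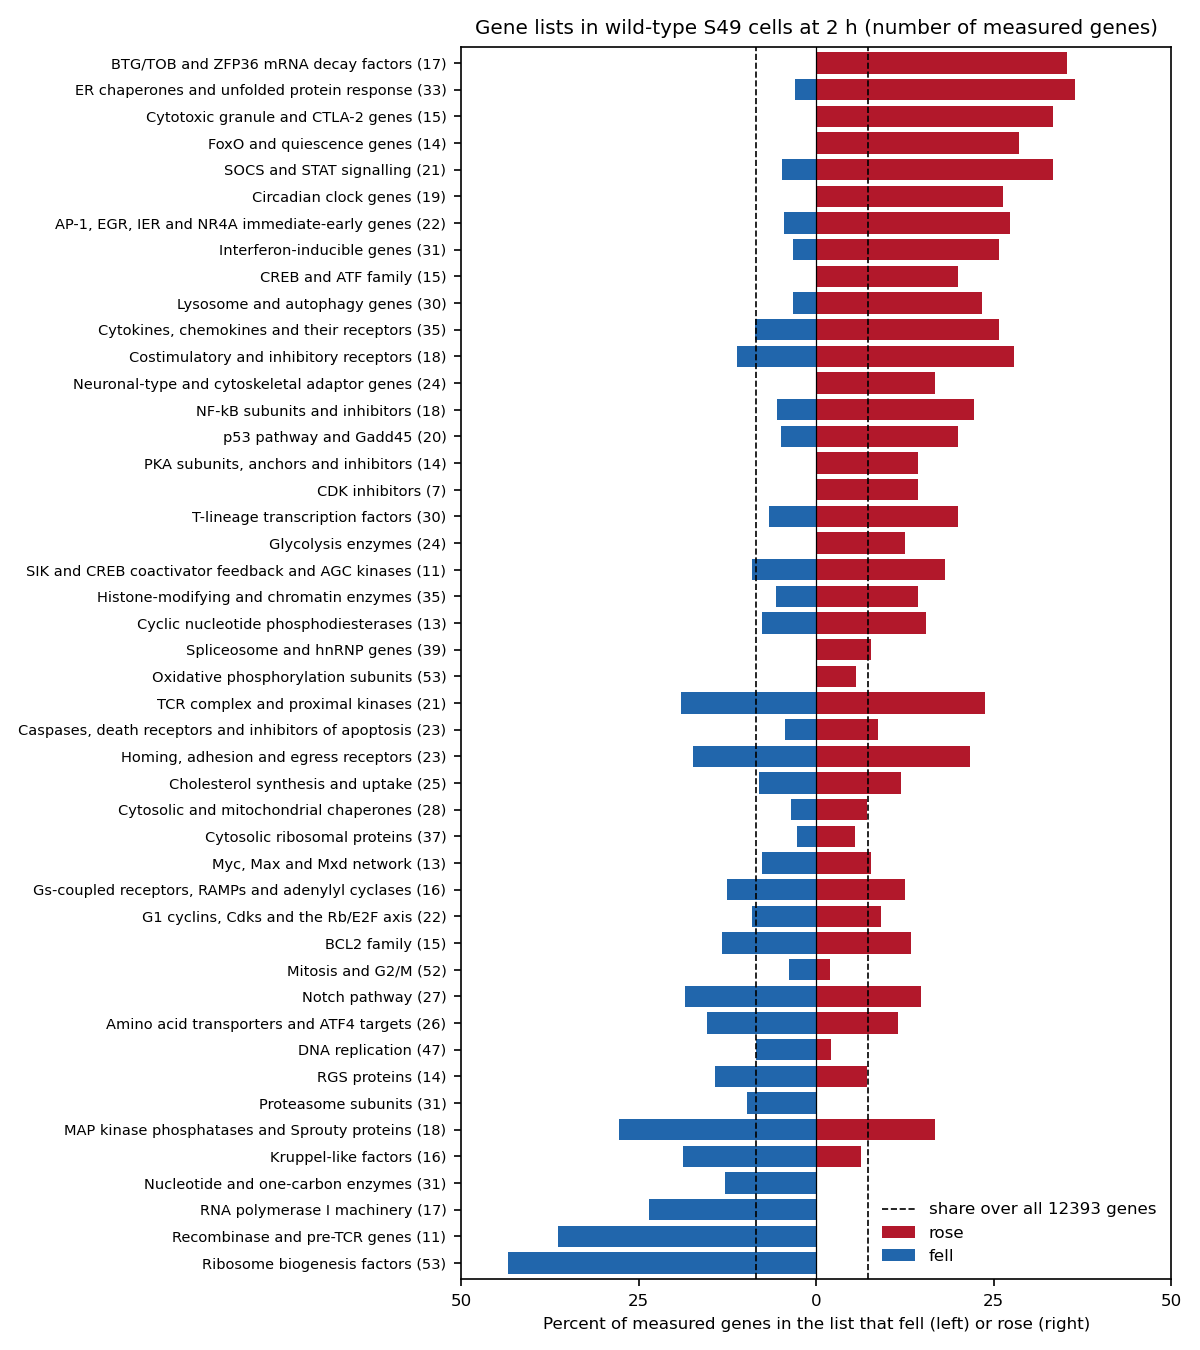
Percent of the measured genes of each of 46 gene lists that rose (red, to the right) or fell (blue, to the left) in wild-type cells at 2 h, with the number of measured genes in brackets; dashed lines are the shares over all 12393 genes, 7.25% and 8.44%. Ribosome biogenesis factors have the longest bar to the left at 43.4%, and genes of the ER chaperone list the longest to the right at 36.4%.

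Cell cycle genes passed in both directions at 2 h. Of 22 genes of G1 cyclins, Cdks and the Rb/E2F axis 2 rose and 2 fell (9.09% each way, against 7.25% and 8.44% of all genes). E2f3 rose, from 6.06 to 6.33 in untreated arrays to 6.90 to 7.19 in treated ones. Cdk2 rose too, from 8.58 to 9.07 untreated to 9.35 to 9.54 treated. The fallers were Ccne1 and E2f6. In a separate list of 7 CDK inhibitors 1 gene rose (14.3%) and none fell. That gene, Cdkn1b, encodes p27 and read 8.52, 8.24, 9.01 and 9.43 untreated and 9.82, 10.77 and 10.41 treated, a rise of 1.53 ± 0.36, adjusted p = 0.00504. Its difference from the Kin- response did not pass (1.59, adjusted p = 0.0688). Ccne1, cyclin E, went from 10.18, 9.99, 9.62 and 9.70 to 9.60, 8.68 and 8.87, so the gap between the groups was only 0.02 (-0.82 ± 0.19, adjusted p = 0.00374), and the call was lost with only these groups in the fit (adjusted p = 0.0838). Ccnd3, the D cyclin of thymocytes, did not pass (-0.23 ± 0.14, adjusted p = 0.331). E2f6, a repressive E2F factor, fell by 0.83. Of 47 DNA replication genes 1 rose and 4 fell, and of 52 genes of mitosis 1 rose and 2 fell (2.13% and 1.92% rose; 8.51% and 3.85% fell). For p53-pathway genes the counts were 4 rises and 1 fall among 20. Their share of rises was above the 7.25% of all genes, and their share of falls was below the 8.44%. Gadd45a, which slows cells at cycle checkpoints, went from 8.76, 8.02, 8.21 and 8.74 to 11.67, 11.84 and 11.38 (3.20 ± 0.46, adjusted p = 3.22e-05). The unusual cyclin Ccng2 rose by 2.48 ± 0.52, and Zmat3 fell by 0.96.

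Genes of cell death and quiescence included both directions. Bcl2l11, which encodes the death-promoting protein Bim, read 9.23, 8.82, 8.96 and 9.12 untreated and 10.67, 10.83 and 10.73 treated, and all 5 of its probe sets rose (1.71 ± 0.18, adjusted p = 6.69e-07). Bid, another death-promoting member of the family, moved the opposite way, from 10.53, 10.72, 10.52 and 10.40 to 8.80, 8.78 and 8.47 (-1.86 ± 0.11, adjusted p = 3.42e-10), and Bak1 fell by 0.50 (-0.24 as the median over its 2 probe sets). Mcl1, a survival member, rose by 0.69 ± 0.17 in its brightest probe set, but the median over its 6 probe sets was -0.04. Bcl2 did not pass (0.20 ± 0.11, adjusted p = 0.275). Pdcd4, an inhibitor of translation, rose from 9.95, 9.96, 9.92 and 9.91 to 11.57, 11.66 and 11.48 (1.64 ± 0.15, adjusted p = 6.79e-08). Among 14 FoxO and quiescence genes 4 rose (28.6%, against 7.25% of all genes) and none fell. Foxo1 went from 8.23, 8.23, 8.81 and 8.64 to 10.97, 10.71 and 11.06 (2.44 ± 0.22, adjusted p = 8.25e-08), and Tsc22d3, also known as GILZ, rose by 2.27 ± 0.24. Lmna rose by 3.80 ± 0.30 in its brightest probe set, the only 1 of 4 that passed (0.33 as the median over its 4 probe sets).

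Many genes of the endoplasmic reticulum rose. Of 33 ER chaperone and unfolded protein response genes 12 rose (36.4%, against 7.25% of all genes) and 1 fell, and the median change was 0.21, at 0.11, 0.23 and 0.39 in arrays 2, 17 and 37. Without array 2 the count of rises was 12 of 33, and the SOCS and STAT list then had the higher share, 8 of 21. Rises over all 12393 genes grew from 898 to 1239 in that fit. Eif2ak3, the stress kinase PERK, went from 9.67, 9.24, 9.41 and 9.13 to 11.32, 11.10 and 11.17 (1.84 ± 0.16, adjusted p = 4.03e-08), although 1 of its 3 probe sets passed (0.51 as the median over its 3 probe sets). Ero1a, an oxidase of protein folding, rose by 1.47 ± 0.36 and the ligase Syvn1 by 1.11 ± 0.19. Cytosolic and mitochondrial chaperones had 2 rises and 1 fall among 28 (7.14% and 3.57%), the fall being that of Fkbp5 (-1.11 ± 0.20). Lysosome and autophagy genes had 7 rises and 1 fall among 30 (23.3% and 3.33%), led by the lysosomal galactosidase Gla (1.65 ± 0.24, or 0.92 as the median over its 2 probe sets). Histone-modifying enzymes had 5 rises and 2 falls among 35 (14.3% and 5.71%). The demethylase Kdm6a rose by 1.09 ± 0.17 and the deacetylase Hdac7 fell by 1.17. Oxidative phosphorylation (3 rises among 53), the proteasome (3 falls among 31) and the spliceosome (3 rises among 39) stayed near or under the background. Actb, beta-actin, did not pass (0.22 ± 0.36, adjusted p = 0.729).

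Several of the largest rises belong to no cAMP feedback list. Sgip1 (1425181_at), an endocytic adaptor best known in neurons, rose most of all genes, from 3.52, 3.52, 3.81 and 4.65 to 10.29, 11.20 and 10.71 (6.86 ± 0.30, adjusted p = 3.99e-12). Its treated arrays were at least 5.64 above the untreated ones, and in Kin- cells it read between 3.44 and 3.56 in all arrays at 0 and 2 h. Tceal1 went from 5.70, 5.30, 5.38 and 6.08 to 10.45, 11.11 and 11.11 (5.28 ± 0.37, adjusted p = 2.3e-09), Maged1, an adaptor in cell death and neurotrophin signalling, from 8.44, 8.23, 8.88 and 9.05 to 12.59, 13.11 and 13.32 (4.36 ± 0.33, adjusted p = 8.58e-09), and the neural transcription factor Olig3 from 5.77, 5.20, 5.98 and 6.24 to 9.79, 10.15 and 10.18 (4.24 ± 0.40, adjusted p = 1.55e-07). None of these groups overlapped. They are the 4 risers of a list of 24 genes of neuronal type and were put in it with their rise known, so its count is not evidence of a direction. Vps37b, a subunit of the ESCRT-I sorting complex, read 6.49, 6.67, 6.52 and 6.33 and then 10.97, 11.60 and 11.00 (4.68 ± 0.32, adjusted p = 1.57e-09). Nabp1, a single-stranded DNA-binding protein, rose by 4.25 ± 0.33, the co-chaperone Sgtb by 4.28 ± 0.43 and the ceramidase Acer2 by 4.11 ± 0.27 (2.15 as the median over its 2 probe sets).

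Other large falls came from genes of varied function. Ccnb1ip1, a ubiquitin ligase of cyclin B, went from 8.65, 9.18, 8.49 and 8.42 to 5.89, 5.79 and 5.34 (-3.01 ± 0.20, adjusted p = 1.63e-09). Plxdc1 read 7.88, 7.76, 7.36 and 6.89 and then 5.57, 3.52 and 4.33 (-3.00 ± 0.45, adjusted p = 5.55e-05). Rev1, a polymerase that copies past damaged bases, fell from 9.36, 9.40, 9.83 and 9.74 to 7.57, 7.44 and 7.26, more within the second array set (-2.44) than within the first (-1.81). The receptor Nrp1 fell by 2.30 and the ligase Trim2 by 2.35, and every probe set of both passed. Dtwd1, Rabgap1l, Ms4a6b, Rab20 and Cpsf4l completed the 20 largest falls together with Ighm and P2rx1. The change of Rabgap1l was -2.29 (-1.03 as the median over its 2 probe sets), and the Ms4a6b call was lost with only these groups in the fit (adjusted p = 0.0643). The immunoglobulin chain Ighm differed between untreated arrays by up to 2.56 (10.07, 9.95, 7.51 and 8.38, against 7.50, 5.37 and 7.10 treated), 2 of its 11 probe sets passed (median change -0.02), and its call was lost with only these groups in the fit (adjusted p = 0.126). For the ATP receptor P2rx1 the difference from the Kin- response did not pass (-1.92, adjusted p = 0.142), and its change was -2.05, or -1.34 within the second array set.

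From 2 h to 6 h some of these genes moved back and others went further. The comparison of 6 h with 2 h shares the 2 h arrays with the one above, so values are given side by side. It passed in 2948 probe sets (13.0%), in 5433 with the runs of arrays as a block, and in 1895 without array 38 at 6 h; over genes, 947 were higher at 6 h than at 2 h (7.64%) and 791 lower (6.38%). Nr4a1 was at 9.94, 10.29 and 10.66 in arrays 3, 18 and 38 at 6 h, all below the 2 h arrays (-1.98, adjusted p = 0.00157). Zfp36 (-2.09, adjusted p = 4.19e-06), Ppp1r15a (-1.68), Fos (-1.46), Per1 (-1.09) and Socs1 (-1.31) were also lower at 6 h than at 2 h. Maff came back to a mean of 3.02, against 2.74 untreated (-2.79, adjusted p = 1.26e-06). Crem (-0.51, adjusted p = 0.37) and Sgip1 (0.35, adjusted p = 0.466) did not pass in this comparison.

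Other genes went further in the direction they had taken by 2 h. Ramp3 rose by another 2.26 (adjusted p = 1.37e-05), to 8.79, 8.53 and 8.77 in the 6 h arrays, and Ctla2a by 1.60. Rag1 fell again, to 6.76, 5.91 and 5.58 (-2.78, adjusted p = 1.09e-07), as did Il10 (-2.04, adjusted p = 0.000643). Notch1 (1.06), Dtx1 (1.24) and Bid (0.93) were higher at 6 h than at 2 h after their early fall, while Ptcra (0.26, adjusted p = 0.755) and Myc (0.31, adjusted p = 0.524) did not pass. Over all genes 7.64% were higher at 6 h than at 2 h and 6.38% lower. Among ribosome biogenesis factors 31 of 53 were lower at 6 h than at 2 h and none higher. The cytosolic and mitochondrial chaperones, with 1 fall at 2 h, had 17 of 28 genes lower at 6 h than at 2 h, nucleotide and one-carbon enzymes 17 of 31, and the spliceosome 15 of 39. Endoplasmic reticulum genes had 11 of 33 higher and none lower.

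**Figure D5:**
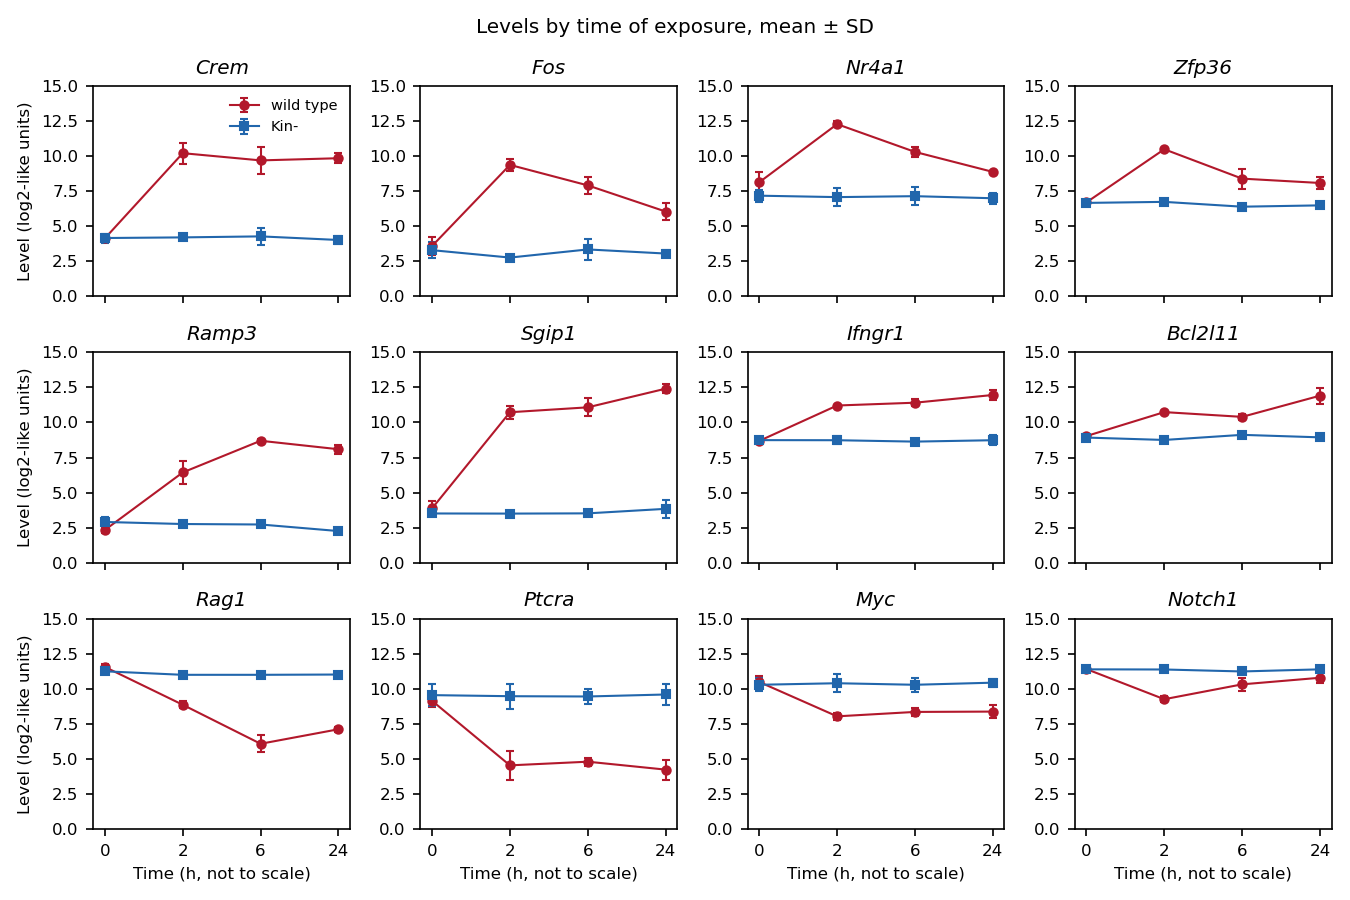
Mean level, in log2-like units, of 12 genes in wild-type (red circles) and Kin- cells (blue squares) at 0, 2, 6 and 24 h, drawn at equal steps; bars are the SD of 3 or 4 arrays. Wild-type Nr4a1 peaks at 12.28 at 2 h and is at 10.30 at 6 h, Ramp3 goes on from 6.44 to 8.70, and Rag1 drops from 8.86 to 6.08; the Kin- lines stay flat by comparison, Crem at 4.16 untreated and 4.21 at 2 h.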

How the data were processed

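Total RNA of WT and Kin- S49 cells was measured on 26 arrays in 8 groups, untreated or at 2, 6 or 24 h, and groups were taken from the labels. The values are scores that the authors deposited in 1 table with a column per array, from 0.403 to 265 in the 7 arrays used most; how they were made, normalized and scaled is not given in the sources used here. Arrays have no read depth, so their number limits the precision. The square root of each score was taken as log2-like. limma 3.58.1 (R 4.3.3) fitted 8 group means over all 26 arrays and 22626 probe sets (lmFit and eBayes), with Benjamini-Hochberg adjustment over all probe sets and a threshold of 0.05. Contrasts were WT 2 h minus 0 h, Kin- 2 h minus 0 h, their difference, and WT 6 h minus 2 h.

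Of the probe sets 20380 have 1 gene symbol in the platform annotation, 691 several and 1555 none; those with 1 symbol name 12393 genes, each read from the probe set with the highest mean over the 26 arrays. Where more than 1 probe set of a gene passed (489 genes), the signs disagreed in 44. Promoters came from RefSeq (GRCm38.p6).

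Named genes are the 20 largest rises and 20 largest falls past the threshold whose treated and untreated arrays do not overlap, up to 3 passing genes in each direction from each of 46 lists (1121 of 1267 genes measured), and a preset group of early cAMP, cell cycle, death and T cell genes; a few of the preset genes were not measured. Csnk1d, Nr1d2, Ier2, Ifnar1, Xrcc5, Cnot7, Zap70, Irf1, Fosb, Tob1, Btg2, Trp53inp2 and Zfand2a fall outside this rule and were picked after their values were seen. The members and lists were chosen with earlier results of these data known.

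On simulated data made from these arrays (WT 2 h against 0 h, 22626 probe sets) the test found 56.7% of 67 changes of 0.5, 83.6% of 67 of 1 and 100% of 66 of 2, with 8 false calls. The simulated noise was independent between arrays, with no array-set or run effect. These rates therefore do not cover the shared spread that the real arrays have. Arrays run in consecutive numbers over the times, but the labels do not say that a run shares a culture or a day. Residuals of untreated and 2 h arrays of a run correlated at 0.545 (1 and 2), 0.397 (16 and 17) and 0.368 (36 and 37), and they also share an array set. With the run as a replicate block the calls at 2 h numbered 4421. The alternatives were other scales, array set terms and subsets, the groups alone, the block, quantile normalization, a filter on low values, array weights, a variance trend, each array left out, and the median over a gene's probe sets.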

Additional observations from a re-analysis of the deposited data

Results flagged for a closer look

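The response at 2 h differed between WT and Kin- cells for 48 of the 57 leading and preset genes, by the interaction term of the limma fit, which passed in 6.92% of all probe sets (WT response minus Kin- response, log2-like units, adjusted p under 0.05 over all probe sets). Of the 57, 40 were chosen for the largest WT changes at 2 h with arrays that do not overlap, which largely built a difference into the choice, and it passed in 39 of them; of the 17 preset genes outside the 40 it passed in 9. Among risers the difference was above 5 for Sgip1 (6.87), Fos (6.31), Crem (6.02), Rgs2 (5.59) and Tceal1 (5.02). It lay between 4 and 5 for Vps37b (4.82), Irgm2 (4.62), Olig3 (4.45), Nabp1 (4.43), Sgtb (4.39), Maged1 (4.31), Acer2 (4.31), Nr4a1 (4.25), Ramp3 (4.25) and Dusp1 (4.10). Smaller differences of the same sign were those of Nfil3 (4.00), Ppp1r15a (3.98), Lmna (3.88), Zfp36 (3.71), Cd53 (3.54), Junb (2.06), Per1 (2.05), Bcl2l11 (1.88) and Pde4b (1.68). The smallest were those of Sik1 (1.21), Hes1 (0.94), Prkar1a (0.87) and Mcl1 (0.80); adjusted p was 0.0428 for Mcl1 and 0.0361 for Sik1, the weakest of this sign.

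Among fallers the largest differences were those of Ptcra (-4.52), Chdh (-3.81), Plxdc1 (-2.98), Ccnb1ip1 (-2.86), Il10 (-2.67), Myc (-2.57) and Dtwd1 (-2.55). Next came Rag1 (-2.45), Ighm (-2.43), Aldh1b1 (-2.35), Ms4a6b (-2.35), Trim2 (-2.29), Rev1 (-2.16), Notch1 (-2.15), Rabgap1l (-2.12), Cpsf4l (-2.06) and Nrp1 (-2.03), followed by Rab20 (-1.91), Ifi204 (-1.74) and Ccne1 (-0.89). Of these, Ccne1 was the weakest (adjusted p = 0.0467).

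A single array stood apart in 1 of the 57 genes: Zfp36 in untreated WT array 36 read 6.64, where the other untreated arrays lay between 6.71 and 6.73. Chance flags about 1 in 20 such groups, and the gap is small beside the rise of Zfp36 at 2 h.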

How the results depend on the processing

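The scale, the array set and the few treated arrays set the limits: the first array set has 1 treated array, and within it most calls could not be made. For WT at 2 h the 3249 calls became 235 with arrays 1 to 14 alone and 6513 with array weights, and ran from 2428 to 3719 with 1 array left out. More of the calls were higher than lower without array 2, with array weights and within each array set alone. Fewer were higher than lower with quantile normalization (45.8%), the filter on low values (46.5%) and the replicate block (47.3%). The same held with all arrays (49.5%) and without treated array 37 (46.0%).

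For Kin- at 2 h the 0 calls (limma; 489 probe sets at an unadjusted p under 0.05) became 1 with log2 of the values, with the array set as a term and with array weights, and 3 with quantile normalization, and ran from 0 to 1 with 1 array left out. For the difference of the responses the 1566 calls became 2616 with the array set as a term, 2428 with arrays 16 to 47 alone, 1 with arrays 1 to 14 alone, 2616 with the replicate block and 3323 with array weights, and ran from 1248 to 1736. For WT at 6 h against 2 h the 2948 calls became 5180, 5363, 0 and 5433 under the first 4 of these settings, 7573 with array weights and 1335 with the groups alone, and ran from 1895 (without array 38 at 6 h) to 3594 (without array 2). The cause of these moves was not tested.

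Of the 191 named genes called at 2 h, 157 lost their call with arrays 1 to 14 alone, 30 with the groups alone, 17 with log2 of the values, 17 with arrays 16 to 47 alone, 4 with the replicate block and 10 to 29 with 1 array left out. With the median over all probe sets Mcl1 turned to -0.0397 and Tgfbr1 to 0.0811, and 28 others moved by more than the spread between arrays. The median change of 12 of 46 lists changed sign with quantile normalization and that of 21 with arrays 1 to 14 alone, so no direction is read from a list median near 0.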
